A study of Mus musculus with 12 samples.

Results

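Endocannabinoids are lipid messengers that neurons make on demand and release backward across the synapse, where they act on the presynaptic cannabinoid receptor CB1 and lower transmitter release. The best known are 2-arachidonoylglycerol (2-AG), made from diacylglycerol by the diacylglycerol lipases, and anandamide, an N-acylethanolamine released from a phospholipid precursor by NAPE-PLD. In the hypothalamus, CB1 signaling is known for promoting food intake. Transcripts of 8 genes of this system were followed in the hypothalamic arcuate nucleus (ARC), out of 38283 genes in the deposited table. They encode the 2-AG synthases (*Dagla*, *Daglb*), NAPE-PLD (*Napepld*), the enzymes that hydrolyze 2-AG (*Mgll*, *Abhd6*, *Abhd12*), the anandamide hydrolase (*Faah*) and CB1 (*Cnr1*). Each symbol had 1 row in the table. *Dagla* was chosen because it was lower in mutant mice, so its genotype difference is described without a test. The other 7 were added by function, with earlier results of these data known.

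The mice were C57BL/6 males aged 8 weeks with free access to food. WT samples (n = 5) were compared with samples of mice homozygous for the R299Q mutation knocked into *Prkag2*, the gene of the γ2 subunit of the energy-sensing kinase AMPK (Homo, n = 7). The mutation is carried in the germ line, so every cell type of the ARC bears it. The ARC was cut by laser from brain sections of 14 μm, its RNA was amplified, and a library was sequenced for each sample. Values are FPKM, fragment numbers scaled to transcript length and to sequencing depth. For *Prkag2* itself the WT mean was 14.6 ± 5.43 (SD, n = 5) and the Homo mean 14.8 ± 4.88 FPKM (SD, n = 7), which does not check the labels because the allele differs by a point mutation.

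The libraries fell into sets by the number of genes above 0, which was 15742 to 16467 in 7 libraries (WT 1, WT 2 and Homo 1 to 5) and 18141 to 18635 in the other 5 (WT 3 to 5, Homo 6 and Homo 7). They are called the sparser and the denser libraries here. No label names this split as a batch. The titles of Homo 6 and Homo 7 are worded differently from those of Homo 1 to 5, while all WT titles are worded alike. Genotype differences are therefore also given within each set. Fragment counts were not used here. Depth was estimated from the most frequent low value, scaled to length, among genes with 1 annotated transcript. By it, a fragment on 1 kb of transcript was worth roughly 0.159 to 0.319 FPKM in the sparser libraries. In the denser libraries it was worth roughly 0.0854 to 0.121 FPKM. On that rough scale, the fewest fragments behind a value were about 34 for *Dagla* (Homo 4), 10 for *Mgll* (Homo 1) and 453 for *Abhd12* (Homo 4). The markers listed for the ARC (9 genes, among them *Agrp*, *Npy* and *Pomc*) were above 0 in every library, and those listed for the neighboring ventromedial nucleus summed to at most 5.90 FPKM.

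*Dagla* encodes DAGLα, the diacylglycerol lipase that makes most 2-AG at brain synapses. The gene lies on the minus strand of chromosome 19 of GRCm38 from 10245265 to 10304877 (ENSMUSG00000035735). It stood at 12.1, 10.5, 5.46, 4.92 and 8.06 FPKM in WT 1 to WT 5. Homo 1 to Homo 7 held 4.12, 2.07, 3.00, 1.99, 2.84, 4.21 and 3.65 FPKM. All 7 Homo libraries lay below all 5 WT libraries, with WT 4 the lowest of WT and Homo 6 the highest of Homo. The WT libraries averaged 8.23 ± 3.14 (SD, n = 5) and the Homo libraries 3.13 ± 0.908 FPKM (SD, n = 7), so that the WT mean was 2.63 times the Homo mean. On the log2(FPKM + 1) scale, which understates the change of low genes, the difference of Homo from WT was -1.12 (standard error 0.26). Of the 14017 genes tested across the table, 0.0927% were lower in Homo with no overlap between the groups, and 388 genes had a more negative difference than *Dagla*. Since *Dagla* was picked on this contrast, nothing is read from its place among them.

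**Figure D1:**
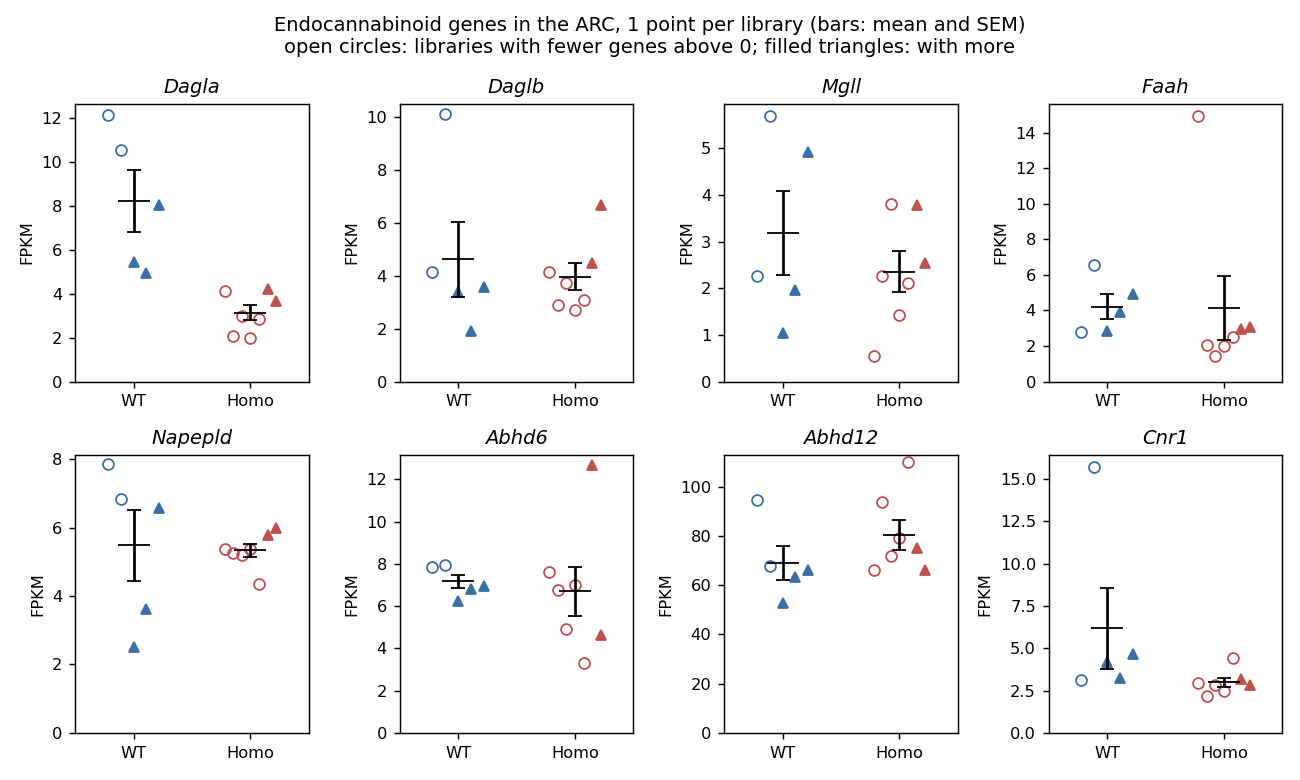
FPKM (vertical axes, each from 0) of the 8 endocannabinoid genes in WT (n = 5) and Homo (n = 7), with 1 point per library and bars for the mean and SEM. Open circles are the 7 sparser libraries (fewer genes above 0) and filled triangles the 5 denser ones; for Dagla every Homo point lies below every WT point, while the groups overlap for the other 7 genes.

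The *Dagla* difference was larger in the sparser than in the denser libraries, a comparison given without a test. Among the sparser libraries, WT 1 and WT 2 averaged 11.3 FPKM and Homo 1 to 5 averaged 2.80 FPKM, a log2 difference of -1.72. Among the denser ones, WT 3 to 5 averaged 6.15 FPKM and Homo 6 and 7 averaged 3.93 FPKM, a log2 difference of -0.51. The genotypes could not overlap in either set, because they did not overlap over all 12 libraries. The sparser WT libraries (10.5 and 12.1 FPKM) were above the denser WT libraries (4.92 to 8.06 FPKM), whereas Homo libraries of the sets overlapped. The sums of the ARC markers were also split, at 4460 and 4516 FPKM in WT 1 and WT 2 and 1285, 2362 and 3170 FPKM in WT 3 to 5. Those of Homo 6 and 7 (4006 and 4120 FPKM) lay within the range of Homo 1 to 5 (3416 to 5168 FPKM). Their part in the *Dagla* values was not tested.

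In a bulk sample, fewer cells of a type and less RNA per cell cannot be told apart. The summed FPKM of 6 neuron markers spanned 580 to 790 over the WT libraries and 549 to 881 over the Homo libraries, and none of the 6 was at 0 in any library. Markers of other cells and of the ARC were not all level between the groups, although the sums of every list overlapped. The 6 microglial markers summed to 28.0 to 44.8 (WT) and 41.7 to 71.8 FPKM (Homo), with 6 of 6 higher in Homo and 2 at an unadjusted limma p under 0.05. The 9 ARC markers summed to 1285 to 4516 (WT) and 3416 to 5168 FPKM (Homo), with 9 of 9 higher in Homo and 3 at an unadjusted p under 0.05. These are genes of ARC neurons, and the authors reported increased *Agrp* and *Npy* in the mutant ARC. The 6 oligodendrocyte markers summed to 88.8 to 550 (WT) and 153 to 403 FPKM (Homo), with 6 of 6 higher in Homo and 0 at an unadjusted p under 0.05. The median log2 differences of these lists were 0.38 (microglia), 0.44 (ARC) and 0.37 (oligodendrocytes). Over all genes tested, 3.05% were higher in Homo at an unadjusted p under 0.05, and 50.7% were lower in Homo at any size. Sums for astrocytes were 261 to 438 (WT) and 209 to 375 FPKM (Homo). For endothelium they were 19.0 to 31.7 and 13.7 to 37.1 FPKM, and for ependyma and tanycytes 29.2 to 48.1 and 21.2 to 51.7 FPKM. Pituitary markers summed to 117 FPKM (WT 3), 69.2 FPKM (WT 5), 57.2 FPKM (Homo 7) and 11.8 FPKM (Homo 4). In the other libraries they summed to at most 0.922 FPKM (WT 4), with sums of 0 in both groups. No marker of any list was at 0 in all 12 libraries. Their part in the *Dagla* values was not tested.

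None of the other 7 genes passed the test between genotypes by limma, which was fitted over all 14017 genes with a mean of at least 1 FPKM, with Benjamini-Hochberg adjustment. All 8 endocannabinoid genes passed that filter. Of all genes tested, 0.00713% passed at an adjusted p of 0.05. At an unadjusted p of 0.05, 5.55% passed, with 3.05% higher and 2.5% lower in Homo. Of the 7 genes, 0 passed either way. Of the 7, 5 were lower in Homo by their mean log2 value, where 50.7% of all genes tested were. Their median log2 difference was -0.17, against -0.0062 over all genes tested. Standard errors of the 7 differences ran from 0.18 (*Abhd12*) to 0.40 (*Faah*).

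**Figure D2:**
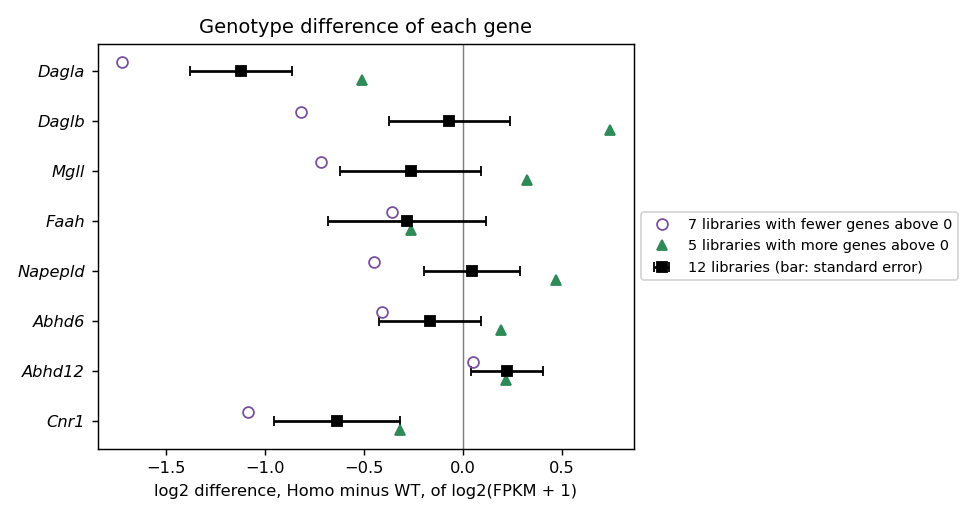
Difference of Homo from WT on the log2(FPKM + 1) scale (horizontal axis) for each of the 8 genes. Squares with standard error bars use all 12 libraries, open circles the 7 sparser and triangles the 5 denser libraries; Dagla, Faah and Cnr1 are negative in both sets and Abhd12 is positive in both, while Daglb, Mgll, Napepld and Abhd6 are negative in the sparser and positive in the denser set.

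*Daglb* encodes DAGLβ, the second diacylglycerol lipase, which is prominent in microglia and macrophages. It lies on chromosome 5 from 143464584 to 143505942 (ENSMUSG00000039206). In WT 1 to WT 5 it was at 4.15, 10.1, 3.37, 1.91 and 3.58 FPKM. The 7 Homo libraries held 4.16, 2.91, 3.73, 2.72, 3.09, 4.49 and 6.66 FPKM. The groups overlapped throughout, with WT 2 above and WT 4 below all Homo libraries. The means were 4.62 ± 3.17 (WT) and 3.96 ± 1.36 FPKM (Homo). The log2 difference was -0.069 (standard error 0.31, exact two-sided permutation p = 0.828, limma adjusted p = 0.990). The exact test covers all 792 ways to assign the genotypes to 12 libraries, with a smallest possible p of 0.0013. Without WT 2 the log2 difference was 0.21, of the opposite sign. The library sets also gave opposite signs, -0.82 (sparser) and 0.74 (denser), a gap with a limma p of 0.0120 before adjustment and 0.876 after it. Of the exonic bases annotated for *Daglb*, 24.1% are also exonic in *Rac1* on the opposite strand, a gene at a mean of 148 FPKM. The strand of the fragments is not stated, so fragments there cannot be assigned with certainty.

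The order of the diacylglycerol lipases by FPKM differed between the genotypes. The ratio of *Dagla* to *Daglb* was 2.92, 1.04, 1.62, 2.58 and 2.25 in WT 1 to WT 5, so *Dagla* was the higher of the pair in all 5. Over Homo 1 to Homo 7 it was 0.990, 0.712, 0.806, 0.730, 0.919, 0.937 and 0.549, so *Daglb* was the higher in all 7. FPKM is divided by length, which allows this comparison between genes only if coverage along their transcripts is alike. That was not tested in this amplified RNA. The ratio does not depend on how libraries are scaled. The ratio rests on the *Dagla* values that chose the gene and on the uncertain *Daglb* values, and is given without a test. The turn is not particular to this pair. The ratio of *Dagla* to *Napepld* was also above 1 in 5 of 5 WT and 0 of 7 Homo libraries.

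*Napepld* encodes NAPE-PLD, a phospholipase that releases anandamide and other N-acylethanolamines. It lies on the minus strand of chromosome 5 from 21662901 to 21701396 (ENSMUSG00000044968). Its values were 7.85, 6.82, 2.51, 3.61 and 6.58 FPKM in WT 1 to WT 5. Those of Homo 1 to Homo 7 were 5.38, 5.26, 5.20, 5.37, 4.34, 5.77 and 6.00 FPKM. The Homo libraries lay inside the WT range, and the means were 5.47 ± 2.29 (WT) and 5.33 ± 0.525 FPKM (Homo). The mean of the log2 values was instead higher in Homo, by 0.047 (standard error 0.24, exact permutation p = 0.828, limma adjusted p = 0.990). The sign was opposite in the library sets, at -0.45 (sparser) and 0.47 (denser).

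*Mgll* encodes monoacylglycerol lipase, which carries out most hydrolysis of 2-AG in the brain. It lies on chromosome 6 from 88724412 to 88828360 (ENSMUSG00000033174). In WT 1 to WT 5 it was at 2.25, 5.70, 1.05, 1.96 and 4.92 FPKM. Homo 1 to Homo 7 had 0.554, 2.26, 3.81, 1.42, 2.11, 3.79 and 2.55 FPKM. The genotypes overlapped, with WT 2 and WT 5 the highest and Homo 1 the lowest of all. The means were 3.18 ± 2.02 (WT) and 2.36 ± 1.18 FPKM (Homo), and the log2 difference was -0.26 (standard error 0.36, exact permutation p = 0.492, limma adjusted p = 0.942). It was -0.72 in the sparser set, 0.32 in the denser set, and -0.058 without WT 2.

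*Abhd6* encodes a membrane serine hydrolase that degrades 2-AG near its site of synthesis. It lies on chromosome 14 from 8002902 to 8056763 (ENSMUSG00000025277). In WT 1 to WT 5 it was at 7.87, 7.97, 6.26, 6.79 and 6.96 FPKM. The Homo libraries, 1 to 7, held 7.63, 6.74, 4.92, 6.98, 3.31, 12.7 and 4.62 FPKM. Homo libraries lay on both sides of the WT range, with Homo 6 above it and Homo 3, Homo 5 and Homo 7 below it. The WT libraries averaged 7.17 ± 0.732 and the Homo libraries 6.70 ± 3.05 FPKM. On the log2 scale Homo differed by -0.17 (standard error 0.26, exact permutation p = 0.530, limma adjusted p = 0.953). That difference was -0.044 without Homo 5, -0.11 without Homo 7, -0.32 without Homo 6 and 0.19 in the denser set.

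*Abhd12* encodes a lysophospholipase of the endoplasmic reticulum that also hydrolyzes 2-AG. It lies on the minus strand of chromosome 2 from 150832493 to 150904741 (ENSMUSG00000032046). It stood at 94.4, 67.8, 52.8, 63.4 and 66.1 FPKM in WT 1 to WT 5. Homo 1 to Homo 7 were at 66.3, 93.9, 71.9, 79.3, 110.0, 75.0 and 66.2 FPKM. All 7 Homo libraries exceeded the WT median of 66.1 FPKM, Homo 7 and Homo 1 by a narrow margin, and WT 1 was above all Homo libraries but Homo 5. The WT mean was 68.9 ± 15.4 and the Homo mean 80.4 ± 16.1 FPKM. The genotypes differed by 0.22 on the log2 scale (standard error 0.18, exact permutation p = 0.215, limma adjusted p = 0.919), with 0.050 in the sparser and 0.22 in the denser set. Without WT 1 the ratio of Homo to WT was 1.29 in place of 1.17 and the exact permutation p was 0.0242. In limma that log2 difference of 0.34 had an adjusted p of 0.834. With any other library left out, the exact permutation p was between 0.16 and 0.45. The log2 difference was 0.14 without WT 3 or without Homo 5.

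By FPKM, *Abhd12* made up most of the hydrolase transcripts, with the same limit on comparing genes. Of the summed FPKM of *Mgll*, *Abhd6* and *Abhd12*, it held between 82.0% and 95.3% in each library. The *Abhd6* share was 9.21 ± 1.09% (SD, n = 5) for WT and 7.70 ± 3.51% (SD, n = 7) for Homo. The *Mgll* share was 3.98 ± 2.47% and 2.68 ± 1.46%, a difference of -1.31 percentage points that stayed inside the spread between libraries (exact two-sided permutation p = 0.270). It was -0.555 percentage points without WT 2, -0.727 without WT 5, and 0.218 in the denser set, of the opposite sign.

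**Figure D3:**
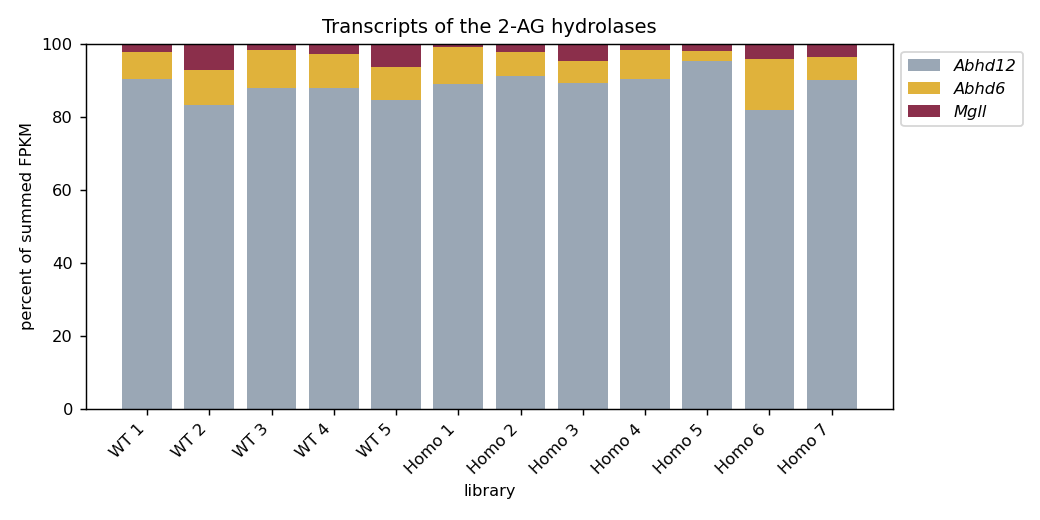
Percent of the summed FPKM of the 2-AG hydrolases (vertical axis, 0 to 100) held by Abhd12, Abhd6 and Mgll in each of the 12 libraries. Abhd12 holds at least 82.0% in every library, and the Mgll share runs from 0.744% in Homo 1 to 7.00% in WT 2.

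*Faah* encodes fatty acid amide hydrolase, which ends the action of anandamide. It lies on the minus strand of chromosome 4 from 115967145 to 116017926 (ENSMUSG00000034171). WT 1 to WT 5 held 2.80, 6.53, 2.86, 3.89 and 4.92 FPKM. Homo 1 to Homo 7 held 15.0, 2.08, 1.46, 1.99, 2.52, 2.96 and 3.06 FPKM. Homo 1 was the highest of all 12 libraries, Homo 6 and Homo 7 lay low in the WT range, and the other 4 Homo libraries lay below every WT library. Mean levels were close, 4.20 ± 1.56 (WT) and 4.15 ± 4.80 FPKM (Homo), and the log2 difference was -0.28 (standard error 0.40, exact permutation p = 0.573, limma adjusted p = 0.945). Homo 1 decided this value. Without it the Homo mean was 2.35 ± 0.616 FPKM (SD, n = 6), the ratio of Homo to WT was 0.559 and the exact permutation p was 0.0260. In limma the log2 difference of -0.61 without Homo 1 had an adjusted p of 0.933. Leaving out any other library gave an exact permutation p of 0.49 to 0.77. Homo 1 also had the largest sums of neuron markers (881 FPKM) and of ependymal and tanycyte markers (51.7 FPKM) among the 12 libraries, and their part in its *Faah* value was not tested.

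*Napepld* and *Faah* make and break down the same lipids. The ratio of *Napepld* to *Faah* was above 1 in 3 of 5 WT libraries, from 0.879 to 2.80, and in 6 of 7 Homo libraries. In Homo it ran from 0.360 in Homo 1 to 3.56 in Homo 3, so the groups overlapped.

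*Cnr1* encodes CB1, the main cannabinoid receptor of neurons. It lies on chromosome 4 from 33924593 to 33948831 (ENSMUSG00000044288). It stood at 3.12, 15.7, 4.17, 3.27 and 4.63 FPKM in WT 1 to WT 5. Homo 1 to Homo 7 held 2.93, 2.19, 2.84, 2.49, 4.41, 3.20 and 2.80 FPKM. WT 2 stood far above all others, 5 of the 7 Homo libraries lay below the lowest WT library, and Homo 5 lay among the upper WT values. The WT mean was 6.18 ± 5.38 (SD, n = 5) and the Homo mean 2.98 ± 0.708 FPKM (SD, n = 7). The log2 values differed by -0.64 (standard error 0.32), with a limma p of 0.0656 before and 0.899 after adjustment. The exact permutation p was 0.0303 over all 792 assignments, the only exact p under 0.05 among the 7 genes. With genotype rearranged only within the library sets, which can be done in 210 ways, the exact permutation p was 0.0238, and the log2 differences were -1.09 (sparser) and -0.32 (denser).

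The *Cnr1* difference leaned on WT 2. Without that library the WT mean was 3.80 ± 0.725 FPKM (SD, n = 4), the ratio of Homo to WT was 0.785 in place of 0.482, the log2 difference was -0.27 and the exact permutation p was 0.0727. The exact p was also above 0.05 without WT 3 (0.0545), WT 5 (0.0727) or Homo 2 (0.0519), and it was 0.0087 without Homo 5. Per 100 FPKM of neuron markers, WT libraries held 0.419 to 2.06 FPKM of *Cnr1* and Homo libraries 0.332 to 0.600, so the groups overlapped there. WT 2 was the highest WT library for 5 of the 8 genes (*Daglb*, *Mgll*, *Faah*, *Abhd6* and *Cnr1*) and had the largest sum of astrocyte markers of the 12 libraries (438 FPKM), whose part in these values was not tested.

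**Figure D4:**
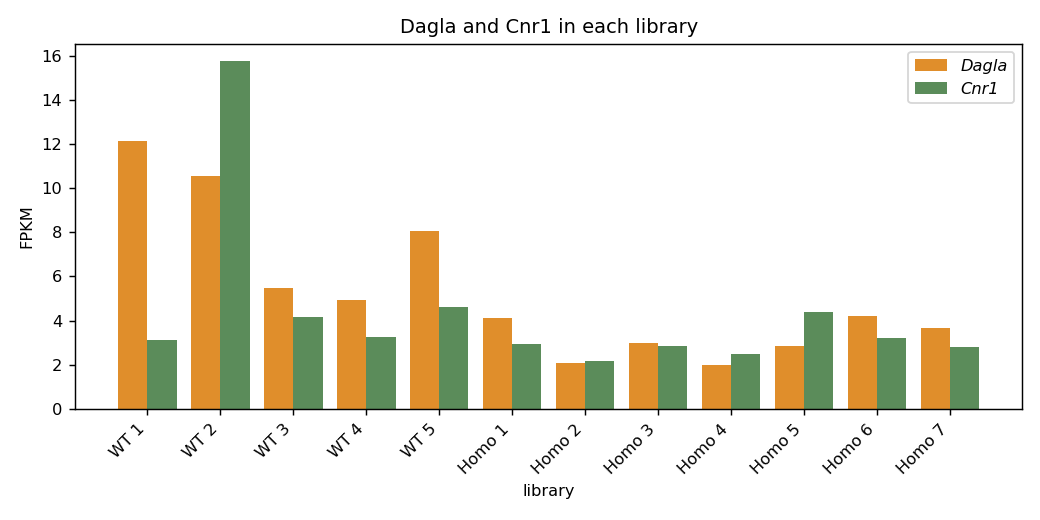
FPKM of Dagla and Cnr1 (vertical axis from 0) in each of the 12 libraries (horizontal axis). Dagla is between 1.99 and 4.21 FPKM in Homo and at least 4.92 FPKM in WT; Cnr1 is at 15.7 FPKM in WT 2 and at or below 4.63 FPKM in the other 11 libraries.

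Ordered by their mean FPKM over the 12 libraries, with the same limit on comparing genes, *Abhd12* was first at 75.6 FPKM, above 93.6% of the genes tested. *Abhd6* (6.89 FPKM), *Napepld* (5.39), *Dagla* (5.25), *Cnr1* (4.32), *Daglb* (4.24), *Faah* (4.17) and *Mgll* (2.70) followed, all below the median gene tested (7.57 FPKM). *Abhd12* exceeded *Abhd6* in 12 of 12 libraries, by 3.30 on the log2 scale (exact sign-flip permutation over libraries, p = 0.0034 after adjustment over the 7 pairs of neighbors). The 4 other pairs of neighbors without *Dagla* did not differ beyond their spread, with adjusted p between 0.185 and 0.682 in the same exact permutation test. For *Cnr1* and *Daglb* the order by FPKM turned on the log2 scale (-0.059). The place of *Dagla* is described by genotype and without a test. It was above *Napepld* in 5 of 5 WT libraries and below it in 7 of 7 Homo libraries, and above *Cnr1* in 4 of 5 WT and 4 of 7 Homo libraries. In WT it ranked second among the 8 genes, and in Homo it ranked sixth. Within genotypes *Abhd12* was also the steadiest, with an SD of 0.28 on the log2 scale, smaller than in all but 7.31% of the genes tested. The SD was 0.41 for *Dagla* and reached 0.74 for *Faah*, against a median of 0.52 over all genes tested.

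Across the 12 libraries, the log2 values of *Dagla* ran most closely with those of *Cnr1* among the 8 genes (Pearson r = 0.61). They ran least closely with *Abhd12* (r = -0.24). With genotype means taken out, r was 0.75 for *Napepld*, 0.72 for *Daglb* and 0.36 for *Cnr1*. These correlations describe 12 libraries that share the set split and differ in depth, and they carry no test. Over all genes tested, the 5 whose values were most like *Dagla* were *4930430E12Rik* (r = 0.91), *Plekha7*, a component of adherens junctions (0.90), *5330426P16Rik* (0.90), *Metazoa_SRP* (0.90) and *Adhfe1*, an alcohol dehydrogenase (0.89). With genotype means taken out they were *Slc22a17* (0.90), *Ccdc151* (0.88), *0610007P14Rik* (0.88), *Mbd2* (0.88) and *Vma21-ps* (0.87). The lists share no gene. Correlations over the 12 libraries include the genotype difference on which *Dagla* was picked, so genes lower in Homo rank high by construction. In the first list, *Metazoa_SRP* averaged 2.54 (WT) and 0 FPKM (Homo) and *5330426P16Rik* 3.93 and 0.588 FPKM. For *4930430E12Rik* the means were 2.33 and 0.734 FPKM, and for *Plekha7* 1.95 and 0.678 FPKM. These genes passed the filter through their WT values.

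Other genes of the pathway were taken from lists made by function, with earlier results of these data known. The lists held 49 genes in all, of which 36 passed the filter. Of these, 19 had a higher and 17 a lower mean log2 value in Homo, with a median log2 difference of 0.0091 against -0.0062 over all genes tested. The 19 include *Plcb3* and *Ptpn22*, which passed the filter through Homo values. The 17 include *Ces1d* (WT mean 3.15, Homo mean 0.709 FPKM), which passed it through WT values. None of the 36 had an adjusted p under 0.05 by limma, and 1 had an unadjusted p under 0.05, where 5.55% of all genes tested did.

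That gene was *Homer1*, from the 12 genes of the Gq branch that drives 2-AG synthesis (glutamate receptors, Gq proteins, phospholipases C, Homer scaffolds and *Camk2a*). Homer proteins tether group I metabotropic glutamate receptors, and DAGLα binds them. WT 1 to WT 5 held 10.4, 9.18, 11.7, 9.999 and 16.4 FPKM of *Homer1*. Homo 1 to Homo 7 held 5.19, 4.73, 3.99, 4.07, 3.79, 11.8 and 8.83 FPKM. Homo 1 to 5 and Homo 7 lay below every WT library, and Homo 6 lay among the upper WT values. Homo differed by -0.90 on the log2 scale (standard error 0.27), with a limma p of 0.0053 before and 0.763 after adjustment. Homo 1 to 5 are also the sparser Homo libraries. The difference was -1.02 in the sparser set, and -0.26 in the denser set, where the genotypes overlapped. *Camk2a*, which encodes a kinase that phosphorylates DAGLα, had the highest level of this list, 70.7 ± 14.5 (WT) and 74.5 ± 14.9 FPKM (Homo, limma adjusted p = 0.982). The remaining 9 genes tested on this list had differences of -0.19 to 0.59. At the upper end was *Plcb3*, singled out after its values were seen, with WT libraries at 0.443 to 0.890 and Homo libraries at 1.00 to 3.03 FPKM and no overlap (limma adjusted p = 0.899). Its WT mean of 0.723 FPKM was under the filter, which it passed through its Homo values, and 0.128% of all genes tested were higher in Homo without overlap.

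The other lists held no gene with an unadjusted p under 0.05. Of the 8 alternative enzymes of N-acylethanolamine synthesis, 6 were tested and 4 were higher in Homo, with *Gdpd1* the most abundant, 35.2 ± 16.7 (WT) and 30.8 ± 7.09 FPKM (Homo, limma adjusted p = 0.985). Among the 4 was *Ptpn22*, with means of 0.156 (WT) and 3.99 FPKM (Homo) and 27.5 FPKM in Homo 4. It passed the filter only through that library. Of 6 other enzymes of hydrolysis and oxidation, 3 were tested, with *Naaa*, an acid amidase, the most abundant, 7.66 ± 1.80 (WT) and 8.44 ± 4.33 FPKM (Homo, limma adjusted p = 0.995). All 4 carriers of lipids inside cells had a higher mean log2 value in Homo, with differences of 0.039 to 0.47 and a smallest limma adjusted p of 0.906. *Fabp7*, a fatty acid-binding protein of glia and the most abundant of them, averaged 71.8 ± 26.0 (WT) and 70.5 ± 13.7 FPKM (Homo), slightly lower in Homo on the FPKM scale. Of the 12 CB1 partners, G proteins and channels, 4 were higher and 8 lower in Homo with a median of -0.040, and *Gnao1*, the Go protein to which CB1 couples, averaged 475 ± 120 (WT) and 514 ± 173 FPKM (Homo, limma adjusted p = 0.985).

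None of the 7 other receptors for these lipids passed the filter. *Cnr2*, the CB2 receptor, averaged 0.0829 FPKM over the 12 libraries, *Gpr55* 0.101 FPKM and *Trpv1* 0.0065 FPKM. *Ppara*, a nuclear receptor for N-acylethanolamines, was between 0.0754 and 0.976 FPKM in the 5 WT libraries and was listed at 0 in 5 of the 7 Homo libraries. At this depth these low values allow no comparison.

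**Figure D5:**
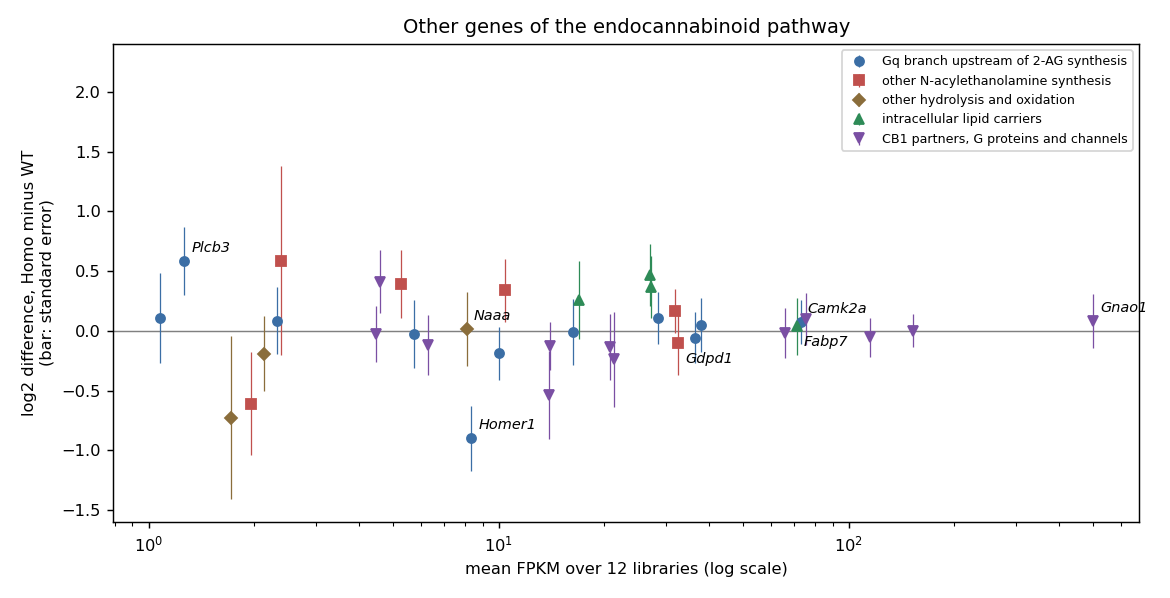
Difference of Homo from WT on the log2(FPKM + 1) scale, with standard error bars (vertical axis), against the mean FPKM over 12 libraries on a log scale (horizontal axis) for the 36 other pathway genes tested. The named genes are the most abundant of each list, Homer1 and Plcb3; Homer1 has the most negative difference at -0.90.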

How the data were processed

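Per the labels, the ARC was laser-captured, RNA was amplified (NuGEN RNAseq v2) and cDNA was sheared to 200 bp. The submitters' notes name TopHat2 2.0.8, Cufflinks 2.2.1 and GRCm38. The authors deposited FPKM values for 38283 genes, and settings and further scaling are not given in the sources used here. FPKM divides by mapped fragments, and 10 genes held 95.9% to 98.1% of each library's sum. Columns were matched to samples by label (12 used, 0 left over).

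FPKM was tested as log2(FPKM + 1) with limma 3.58.1 in R 4.3.3 (trend, robust variances), checked on simulated data. Exact permutation tests used scipy 1.17.1. The labels do not say whether samples were separate animals, so p-values measure the spread between samples, which may be technical. Positions are from GENCODE M21, which held 97.5% of the identifiers tested.

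Members and lists were chosen with earlier results of these data known. Named genes were the 8 members, the pathway genes with an unadjusted p under 0.05, the most abundant gene of each list and the 5 most like *Dagla*. *Plcb3*, *Ptpn22*, *Ces1d*, *Cnr2*, *Gpr55*, *Trpv1* and *Ppara* were named after their values were seen. Alternatives covered pseudocount, filters, scalings, array weights, library set, Homo 1 to 5 alone, a replicate block and each library left out.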

Additional observations from a re-analysis of the deposited data

Results flagged for a closer look

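Each gene's highest and lowest value was compared with the rest of its group, as was the *Mgll* share, over 18 groups of 5 or 7 libraries. Chance would flag about 1 in 20 groups of normally distributed values. That rate need not hold for FPKM values, and the groups share libraries. In all, 3 values stood apart. *Daglb* in WT 2 was at 10.1 FPKM, and the next WT library was at 4.15 FPKM. *Cnr1* in WT 2 was at 15.7 FPKM, and the next WT library was at 4.63 FPKM. *Faah* in Homo 1 was at 15.0 FPKM, and the next Homo library was at 3.06 FPKM.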

How the results depend on the processing

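Over 24 alternatives the log2 difference of *Dagla* stayed negative. This adds no support, because *Dagla* was chosen for being lower in Homo. With groups that do not overlap, leaving out or splitting libraries could not turn the sign. The difference was between -1.27 (without WT 4) and -0.98 (without WT 1) with 1 library left out. It moved to -1.72 in the 7 sparser libraries and -0.51 in the 5 denser ones. For the other 7 genes, 164 combinations of gene and alternative gave 0 adjusted p under 0.05 (smallest 0.648). Signs turned in the denser set for *Daglb* (0.74), *Mgll* (0.32), *Abhd6* (0.19) and the *Mgll* share (0.218 percentage points). *Daglb* also turned with array weights (0.25), and with 1 library left out it ran from -0.27 to 0.21. *Napepld* turned to -0.055 when scaled without the 10 highest genes, -0.029 when the model held the library set, -0.45 in the sparser set and -0.0028 with Homo 1 to 5 alone, and ran from -0.15 to 0.18 with 1 library left out. With 1 library left out, *Mgll* ran from -0.49 to -0.058, *Abhd6* from -0.32 to -0.044, *Faah* from -0.61 to -0.14, *Abhd12* from 0.14 to 0.34, *Cnr1* from -0.78 to -0.27 and the *Mgll* share from -1.87 to -0.555 percentage points. The scaling without the 10 highest genes shifted the median of all genes to -0.12 and *Abhd12* to 0.092, and the denser set had a median of 0.13. *Daglb*, *Mgll*, *Faah* and *Cnr1* have no value at a mean of at least 5 FPKM.

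Genes called over the table rose from 1 to 6 in the sparser set, 19 in the denser set, 4 with Homo 1 to 5 alone and 2 with a replicate block over libraries 1 to 5, and ran from 1 to 3 with 1 library left out (3 without WT 2, 2 without Homo 4). The replicate numbers did not pair the samples, since deviations of same-numbered libraries correlated at -0.054 to 0.029, and 0 of the 5 WT libraries matched best with their own number. Under that block *Napepld* was at -0.0028. Pathway genes with an unadjusted p under 0.05 numbered 2 with a pseudocount of 0.1, no filter, quantile or upper-quartile normalization, Homo 1 to 5 alone or the block, 0 in the denser set, and 1 to 2 with 1 library left out. Pairs of neighboring levels past 0.05 numbered 0 in each library set, where few libraries limit the exact p, and 1 to 2 with 1 library left out. The causes of the other shifts were not tested.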
